A study of Rattus norvegicus with 16 samples.

Results

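The genes described here carry glucose through mesenchymal stromal cells (MSCs): its uptake, glycolysis, the entry of pyruvate into the mitochondrion, the making and export of lactate, the pentose phosphate pathway and glycogen. The list names 43 genes and was set by name, with no measured value in the rule. A row of the gene table was found for 42 of them among 26689 genes. Pgd, an enzyme of the oxidative pentose phosphate branch, had no row by this rule and was not analysed here. Pgk1 and Aldoa were named through the KEGG annotation of their rows, and of the rows named Gapdh the one with 928714 counts was used, the others holding 42 and 33. Of the 42 genes, 40 had at least 10 counts in at least 4 libraries and were tested. The other 2 were Slc2a3, the neuronal glucose transporter GLUT3, with 10 counts over the M1CM libraries, 2 over Pol1 and 0 over M0CM and D10, and Fbp1, which runs the phosphofructokinase step backwards, with 13 counts in M1CM, 12 in Pol1, 3 in M0CM and 7 in D10.

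MSCs came from the bone marrow of 4 adult female wild-type Sprague-Dawley rats (rats 2, 3, 4 and 8), were sorted as CD29+/CD45- cells, and were grown in D10, which is DMEM with 10% fetal bovine serum and gentamycin. Cells of each rat were then kept for 24 h in 1 of 4 media, which gave 16 libraries. M1CM was the supernatant of inflammatory primary macrophages, Pol1 held the polarizing factors LPS (100 ng/ml) and IFNg (20 ng/ml) with no macrophages, M0CM was the supernatant of unpolarized primary macrophages, and D10 was the unchanged growth medium. The labels give D10 as the base of Pol1, while the study's methods make the polarization medium from RPMI with macrophage colony-stimulating factor and state another IFNg concentration. Both conditioned media rest on RPMI and may carry the polarizing or differentiating factors given to the macrophages. The glucose concentration of each medium is not given in the sources used here, and 24 h of macrophage culture can change it. The base medium, its glucose and the secreted factors therefore cannot be told apart in any comparison with D10. By the labels Pol1 also differs in base from both conditioned media, so comparisons of Pol1 with M1CM or M0CM carry the same limit. Between M1CM and M0CM, glucose and secreted factors cannot be told apart either.

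Glucose enters cells through carriers of the Slc2a (GLUT) family and is trapped as glucose-6-phosphate by hexokinases. Phosphofructokinase then commits it to glycolysis, and the enzymes below turn each sugar into pyruvate, which lactate dehydrogenase reduces to lactate for export through monocarboxylate carriers, or pyruvate dehydrogenase passes to the mitochondrion. Many of these genes are targets of the hypoxia-inducible factor HIF-1, and inflammatory macrophages are known for a high rate of glycolysis.

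Levels are given as CPM, counts per 1e6 counts of the TMM-scaled library, and values within a medium follow the order rat 2, 3, 4 and 8. Differences between media are log2 fold changes from edgeR, written with ± for their standard error, whereas ± after a mean level is the SD. GEO's labels make each rat a separate animal, so n = 4 rats per medium throughout. Library totals were 23291125 to 27808152 counts in M1CM, 25097631 to 28075391 in Pol1, 24055829 to 27863079 in M0CM and 25259670 to 31992709 in D10, and the scaling factors lay between 0.94 and 1.043. All 10 MSC markers looked at (Thy1, Itgb1, Nt5e, Eng, Cd44, Pdgfra, Pdgfrb, Vcam1, Col1a1 and Col1a2) were detected in every condition. Of these, Cd44, Pdgfra and Vcam1 were called higher and Col1a1, Col1a2 and Itgb1 lower in M1CM than in D10, so that MSC markers moved in the comparison in which most members did. Of 16 macrophage and monocyte markers 15 were found, and their summed level was 17.7 to 41.9 CPM in M1CM, 7.50 to 11.8 in Pol1, 19.7 to 25.2 in M0CM and 5.62 to 9.61 in D10. Among the 10 with enough counts, M1CM had 5 above and 2 below D10, Pol1 had 1 below, and M0CM had 1 above. With a term for the rat in the fit, which compares media within each animal, 6 of the 10 were higher in M0CM than in D10 (Cd53, Csf1r, Cybb, Laptm5, Lyz2 and Mrc1) and 6 in M1CM. At 0 in all libraries of a condition were Tyrobp, Mrc1 and Cd163 in M1CM, Ptprc, Adgre1, Tyrobp and Cd163 in Pol1, Cd163 in M0CM, and Ptprc, Adgre1, Tyrobp, Cd163 and Aif1 in D10. The part of these transcripts in the results below was not tested, other than where a value is given.

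In M1CM most of the tested members were raised. Set against D10, 29 of the 40 tested members were higher and 2 were lower by the quasi-likelihood test of edgeR at an adjusted p below 0.05 (n = 4 in each), while 23.3% of all 13556 tested genes were higher and 21.1% lower. The median log2 fold change was 1.56 over the members and -0.01 over all tested genes. The higher genes included all 4 of the hexokinase step, 9 of 10 of lower glycolysis, 3 of 4 of lactate and 3 of 3 of glycogen, and the lower ones were Eno3, the muscle enolase, and Pdhb, a subunit of pyruvate dehydrogenase. With the term for the rat 30 members were higher, Rpia being added, and 3 lower, Ldhb being added, against 27.8% and 27.4% of all genes. In 29 members every M1CM library lay above every D10 library, against 19.1% of all genes. Summed over the 42 genes, the level was 18741 to 26083 CPM in M1CM, 11368 to 15126 in Pol1, 11943 to 13645 in M0CM, against 7260.3 to 8934 in D10. M1CM rat 3 held the lowest of the M1CM sums, with 18741 CPM against 25675 to 26083 in the other rats, and all 10 genes of lower glycolysis were lowest in it among the M1CM libraries. Without rat 3, 30 members were higher and 3 lower, and the 2 lower calls became 1 without rat 4 or without rat 8, where Pdhb was lost.

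**Figure D1:**
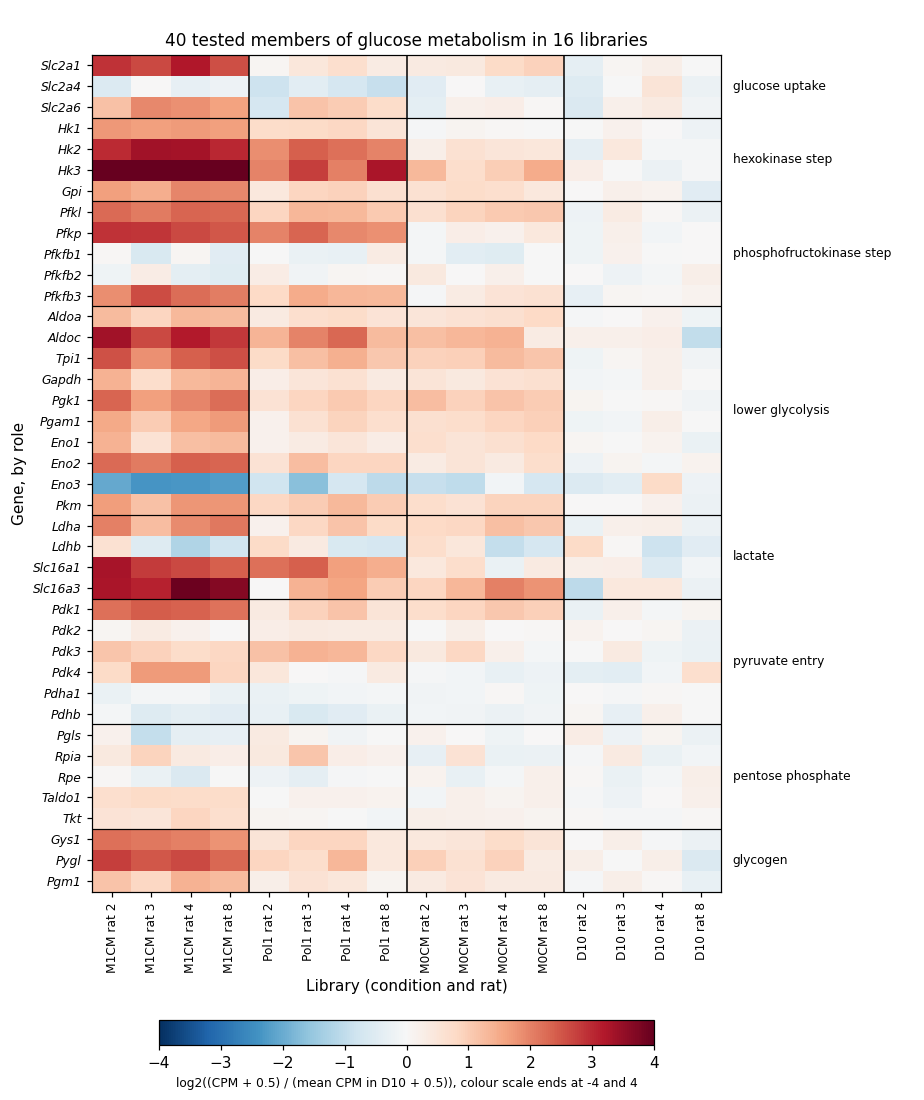
Level of each of the 40 tested members (rows, by role) in each of the 16 libraries (columns, by condition and rat), as log2 of the CPM plus 0.5 over the mean CPM in D10 plus 0.5. Red is above and blue below the D10 mean. The M1CM columns are red in most rows except Slc2a4, Pfkfb1, Pfkfb2, Eno3, Ldhb, Pdha1, Pdhb and much of the pentose phosphate rows.

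Fewer members were higher in Pol1 than in M1CM, each set against D10, and the median change was smaller. In Pol1, 22 of 40 members were higher than in D10 and 3 lower, against 10.6% and 8.09% of all genes, and the median log2 fold change of the members was 0.64. Fitted with the term for the rat, 27 were higher, Slc2a1, Slc2a6, Gapdh, Rpia and Pgm1 being added, and 3 lower, against 16.3% and 16.2% of all genes. Every Pol1 library lay above every D10 library in 21 members and in 12.9% of all genes. The count of higher members was 19, 16 and 17 without rat 3, 4 or 8. The 3 lower ones, Slc2a4, Eno3 and Pdhb, became 1 without rat 2 or rat 3 and 0 without rat 4 or rat 8.

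Medium of unpolarized macrophages moved few genes of the genome, and members of the pathway were among them. Pfkl, Tpi1, Pgk1 and Pdk1 were higher in M0CM than in D10, 4 of 40 members against 0.125% of all genes (17 of 13556). None of the 40 was lower by edgeR, with 0 at an unadjusted p below 0.05 and 0 by DESeq2, against 0.0148% of all genes. With the term for the rat 16 members were higher against 0.789% of all genes, and DESeq2 called 14. The 12 members added by that term were Slc2a1, Hk2, Hk3, Aldoa, Aldoc, Eno1, Pgam1, Pkm, Ldha, Slc16a3, Gys1 and Pygl, and 0 were lower, against 0.31% of all genes. Every M0CM library lay above every D10 library in 20 of the 40 members, against 2.01% of all genes, and 25 members were higher in M0CM in 4 of 4 rats, against 11.7% of all genes. The calls depended on which rat was left out. Without rat 2, 3, 4 or 8 the 4 members became 1, 2, 0 and 0. With the term for the rat the 16 became 10, 16, 2 and 2. The median log2 fold change of the members was 0.40. The summed macrophage markers given above also lay higher in each M0CM library than in each D10 library, 6 of 10 of these markers being called with the term for the rat, and their part was not tested.

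The promoters of 7 members that the following results turn on are printed here, since members moved together in some media and apart in others. Pfkl and Pdk1 were called in M0CM and in Pol1 against D10, and Ldha was called in M0CM with the term for the rat. Hk2, Pfkp and Slc16a1 were higher in Pol1 than in M0CM, and Slc2a1 rose chiefly in M1CM. Each line gives the 250 bases before the gene's start from RefSeq (build GRCr8), 5′ to 3′ on the strand of the gene. Capitals mark ACGTG or GCGTG on either strand, the core letters of the hypoxia response element, which read CACGT or CACGC where they lie on the other strand.
Slc2a1 (chr5:138002272-138002521, + strand): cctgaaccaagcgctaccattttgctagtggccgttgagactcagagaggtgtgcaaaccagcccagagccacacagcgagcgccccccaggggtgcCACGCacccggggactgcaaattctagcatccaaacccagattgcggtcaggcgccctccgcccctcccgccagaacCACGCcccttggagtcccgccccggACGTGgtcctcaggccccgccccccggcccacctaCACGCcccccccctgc
Hk2 (chr4:116841276-116841525, - strand): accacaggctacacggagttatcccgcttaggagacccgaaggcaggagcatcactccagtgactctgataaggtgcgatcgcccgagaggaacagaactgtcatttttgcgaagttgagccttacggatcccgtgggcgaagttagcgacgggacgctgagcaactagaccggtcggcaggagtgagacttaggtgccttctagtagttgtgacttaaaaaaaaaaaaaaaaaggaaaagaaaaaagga
Pfkl (chr20:10663715-10663964, + strand): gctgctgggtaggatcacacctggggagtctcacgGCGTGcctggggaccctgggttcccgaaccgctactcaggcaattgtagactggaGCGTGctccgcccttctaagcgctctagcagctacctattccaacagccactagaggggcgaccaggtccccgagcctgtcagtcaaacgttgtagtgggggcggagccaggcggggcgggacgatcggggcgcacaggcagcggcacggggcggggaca
Pfkp (chr17:68639563-68639812, + strand): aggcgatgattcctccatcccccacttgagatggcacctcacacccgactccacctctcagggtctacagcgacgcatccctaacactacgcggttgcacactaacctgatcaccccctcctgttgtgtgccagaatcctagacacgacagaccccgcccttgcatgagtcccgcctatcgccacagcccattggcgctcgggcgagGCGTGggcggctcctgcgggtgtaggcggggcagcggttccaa
Ldha (chr1:106507842-106508091, + strand): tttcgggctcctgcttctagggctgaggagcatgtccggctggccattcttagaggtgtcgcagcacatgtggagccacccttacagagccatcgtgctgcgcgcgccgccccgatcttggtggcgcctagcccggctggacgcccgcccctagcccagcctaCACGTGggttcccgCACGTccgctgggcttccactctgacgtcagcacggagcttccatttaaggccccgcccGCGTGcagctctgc
Slc16a1 (chr2:194812410-194812659, + strand): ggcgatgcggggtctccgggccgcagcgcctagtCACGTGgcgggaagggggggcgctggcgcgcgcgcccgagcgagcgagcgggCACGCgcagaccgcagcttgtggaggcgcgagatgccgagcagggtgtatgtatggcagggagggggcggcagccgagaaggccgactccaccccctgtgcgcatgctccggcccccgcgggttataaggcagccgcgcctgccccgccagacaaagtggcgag
Pdk1 (chr3:77113264-77113513, + strand): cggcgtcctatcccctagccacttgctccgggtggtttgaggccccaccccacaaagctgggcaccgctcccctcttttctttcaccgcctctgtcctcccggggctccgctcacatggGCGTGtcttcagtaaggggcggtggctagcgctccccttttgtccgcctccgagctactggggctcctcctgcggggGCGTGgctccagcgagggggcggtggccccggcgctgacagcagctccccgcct
A RefSeq promoter was matched for 38 of the 42 members, all but Slc2a3, Slc2a4, Pgk1 and Pgls. Only the first promoter entry of each member was used, so a match at another start of the gene would be missed. The 33461 promoters set beside them are all distinct entries and were not matched for base composition. The window of 24 of the 38 (63.2%) held ACGTG or GCGTG on either strand, against 36.7% of 33461 promoters of the same length. ACGTG alone was in 36.8% of members against 16.6% of promoters, and GCGTG in 50% against 25.9%. CACGTG, the E-box bound by Myc and related factors, which contains ACGTG on both strands, was in 13.2% against 5.59%. A form of the NF-kB site was in 0 of 38 against 0.314%. Of the genes called in M0CM, Pfkl and Pdk1 held 2 matches each and Tpi1 none. Of those higher in Pol1 than in M0CM, Hk1 and Hk2 held none, Pfkp and Hk3 1 each, Pfkfb3 3, Slc16a1 4 and Pdk3 5. These numbers take in all motifs looked for and overlapping matches, so a CACGTG match counts beside the ACGTG within it. These matches are letters in a window, and binding was not measured.

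The main carrier of glucose uptake rose in M1CM far above the other media. Slc2a1 (GLUT1), which supplies basal glucose to most cells, was at 529, 452, 662 and 429.7 CPM in M1CM, 75.5, 98.8, 115 and 89.3 in Pol1, 92.2, 95, 122 and 136 in M0CM, against 56, 75.2, 84.3 and 70.9 in D10. All M1CM values lay above all others, every M0CM value lay above D10, and Pol1 overlapped D10. Slc2a1 was higher in M1CM than in D10 (2.85 ± 0.19 on the log2 scale, adjusted p = 2.36e-08), than in Pol1 by 2.45 ± 0.19 (adjusted p = 1.34e-06) and than in M0CM by 2.22 ± 0.19 (adjusted p = 3.08e-07). Against D10 its log2 fold change was 0.40 in Pol1 and 0.64 in M0CM, with adjusted p = 0.14 and 0.475, and with the term for the rat both passed (adjusted p = 0.0325 and 0.0336).

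Slc2a6 (GLUT6), another member of the carrier family, was at 70.1, 118, 112 and 95.1 CPM in M1CM, 19.1, 67.9, 62.3 and 51.2 in Pol1, 23.6, 35.1, 36.8 and 31.9 in M0CM, against 20.4, 35.2, 39.8 and 27.6 in D10. The M1CM libraries were the highest in every rat, and Pol1 rat 2 lay below the other Pol1 libraries and below every D10 library. It was higher in M1CM than in D10 (1.68 ± 0.32 on the log2 scale, adjusted p = 0.000629) and than in Pol1 by 0.98 ± 0.32 (adjusted p = 0.0346), and the call against Pol1 was lost at adjusted p = 0.0828 leaving out rat 3, 0.112 leaving out rat 4 and 0.139 leaving out rat 8. With the term for the rat Slc2a6 was also higher in Pol1 than in D10 (adjusted p = 0.143 without it and 0.00748 with it). Slc2a4 (GLUT4), the insulin-responsive carrier of muscle and fat, was scarce, at 0.154, 0.471, 0.265 and 0.321 CPM in M1CM, 0.0405, 0.215, 0.102 and 0 in Pol1, 0.199, 0.461, 0.282 and 0.245 in M0CM, against 0.167, 0.451, 0.877 and 0.317 in D10. It was lower in Pol1 than in D10 (-2.28 ± 0.70 on the log2 scale, adjusted p = 0.0343), in groups that overlap and on 10 counts over the Pol1 libraries against 54 over D10, and the call was lost at adjusted p = 0.0628 leaving out rat 2, 0.245 leaving out rat 4 and 0.115 leaving out rat 8, while leaving out rat 3 took the gene below the count filter.

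All 4 genes of the hexokinase step were higher in M1CM and in Pol1 than in D10, and Hk1 was at the level of D10 in M0CM. Hk2, the inducible hexokinase bound to mitochondria, was at 311, 402, 392 and 314 CPM in M1CM, 141, 204, 181 and 153 in Pol1, 45.1, 59.7, 54.3 and 52.6 in M0CM, against 30.0, 51.7, 36.8 and 36.3 in D10. The M1CM, Pol1 and M0CM groups did not overlap, and M0CM overlapped D10. Its log2 fold change against D10 was 3.20 ± 0.18 (adjusted p = 3.93e-09) in M1CM, 2.13 ± 0.17 (adjusted p = 3.69e-07) in Pol1 and 0.45 ± 0.17 (adjusted p = 0.828) in M0CM, where it passed with the term for the rat (adjusted p = 0.0186). Hk1, the constitutive hexokinase, was at 616, 573, 603 and 579 CPM in M1CM, 305, 314, 329 and 268 in Pol1, 181, 200.0, 193 and 183 in M0CM, against 184, 208, 188 and 161 in D10. M0CM and D10 libraries of Hk1 overlapped, whereas Pol1 lay above both and M1CM above all, by 1.68 ± 0.095 (adjusted p = 4.2e-09) in M1CM and 0.72 ± 0.093 (adjusted p = 6.15e-05) in Pol1 against D10. Gpi, which turns glucose-6-phosphate into fructose-6-phosphate, was higher in M1CM by 1.76 ± 0.16 (adjusted p = 6.91e-07) and in Pol1 by 0.72 ± 0.16 (adjusted p = 0.00516) against D10.

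Hk3, the hexokinase of myeloid cells, was near the floor in D10 and reached a level in M1CM that no other condition approached. Its range was 29.7 to 106 CPM in M1CM, 1.82 to 5.12 in Pol1, 0.461 to 1.14 in M0CM, against 0 to 0.209 in D10, with 7550, 342, 83 and 9 counts over the 4 libraries of M1CM, Pol1, M0CM and D10. Every M1CM library lay above every Pol1 library, and every Pol1 library above every M0CM library. The log2 fold change in M1CM against D10 was 9.76 ± 0.66 (adjusted p = 2.61e-08) and in Pol1 5.19 ± 0.66 (adjusted p = 4.97e-05). The Hk3 level in M1CM rats 3, 4 and 8 was 106, 76.6 and 81.4 CPM, against 17.7 to 41.9 CPM for the sum of the 15 macrophage and monocyte markers in M1CM, and 29.7 CPM in rat 2. The part of macrophage RNA in the Hk3 level was not tested. In bulk RNA, fewer cells of a type and less RNA per cell cannot be told apart.

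At the phosphofructokinase step the platelet and liver isoforms behaved unlike each other. Pfkp, the platelet-type enzyme, was at 244, 238, 203 and 184 CPM in M1CM, 129.7, 165, 123 and 115 in Pol1, 30.5, 39.2, 36.4 and 43.7 in M0CM, against 28.5, 37.7, 30.2 and 32.9 in D10. M0CM and D10 overlapped, and every Pol1 and M1CM library lay above both. It was higher against D10 by 2.75 ± 0.15 (adjusted p = 3.23e-09) in M1CM and 2.04 ± 0.15 (adjusted p = 1.07e-07) in Pol1, and its log2 fold change in M0CM was 0.21 (adjusted p = 1). Pfkl, the liver-type enzyme, was at 536, 478, 569 and 557 CPM in M1CM, 202, 284, 277 and 234 in Pol1, 175, 208, 233 and 236 in M0CM, against 96.5, 142, 115 and 95.6 in D10. Here every M0CM library lay above every D10 library and within or just below the Pol1 range. Pfkl was higher against D10 by 2.25 ± 0.15 (adjusted p = 2.8e-08) in M1CM, 1.15 ± 0.15 (adjusted p = 6.15e-05) in Pol1 and 0.92 ± 0.15 (adjusted p = 0.0203) in M0CM, the M0CM call being lost at adjusted p = 0.0586 leaving out rat 2, 0.563 leaving out rat 4 and 0.677 leaving out rat 8.

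Of the enzymes that set the phosphofructokinase activator fructose-2,6-bisphosphate, only Pfkfb3, the form with the strongest kinase activity, was called among the 3 tested. It ranged over 70.6 to 118 CPM in M1CM, 33.1 to 54.5 in Pol1, 18.5 to 29.1 in M0CM, against 15.2 to 21.1 in D10, and was higher by 2.24 ± 0.20 (adjusted p = 3.76e-07) in M1CM and 1.27 ± 0.19 (adjusted p = 0.000267) in Pol1 against D10. Pfkfb2 (8.75 to 16.5 CPM over all 16 libraries) and Pfkfb1 (0.214 to 0.853 CPM) were called in none of the comparisons.

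Lower glycolysis, from aldolase to pyruvate kinase, rose in M1CM in 9 of 10 genes. Its summed level was 11305 to 17238 CPM in M1CM, 7948 to 10621 in Pol1, 8452 to 10062 in M0CM, against 5165 to 6406 in D10. The M1CM sums lay above the Pol1 sums and these above D10, whereas the Pol1 and M0CM sums overlapped. Against D10, 7 of the 10 were higher in Pol1 and 2 in M0CM, or 7 in M0CM with the term for the rat.

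Pgk1, the first ATP-yielding enzyme, was at 1886, 1160.0, 1434 and 1768 CPM in M1CM, 555, 672, 778 and 677 in Pol1, 883, 706, 815 and 753 in M0CM, against 406, 367, 384 and 336 in D10. M0CM lay above Pol1 in 4 of 4 rats with overlapping groups, and every library of both lay above D10. It was higher against D10 by 2.07 ± 0.15 (adjusted p = 7.43e-08) in M1CM, 0.85 ± 0.15 (adjusted p = 0.00104) in Pol1 and 1.08 ± 0.15 (adjusted p = 0.00957) in M0CM, where the call was lost at adjusted p = 0.303 leaving out rat 4 and 0.358 leaving out rat 8. Pkm, pyruvate kinase, was at 4918, 3509, 5304 and 5298 CPM in M1CM, 2788, 3163, 3827 and 3138 in Pol1, 2502, 2307, 2878 and 2867 in M0CM, against 1578, 1561, 1739.7 and 1334 in D10. Every library in the other 3 media lay above every D10 library, and Pol1 overlapped both M1CM and M0CM. Pkm was higher by 1.61 ± 0.16 (adjusted p = 1.07e-06) in M1CM and 1.06 ± 0.15 (adjusted p = 0.000194) in Pol1, and in M0CM its log2 fold change was 0.76 (adjusted p = 0.0997, or 0.00794 with the term for the rat).

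Eno2, the enolase of neurons, was at 234, 209, 258 and 244 CPM in M1CM, 72.3, 116, 88 and 87.7 in Pol1, 60.6, 69.8, 61.8 and 80.0 in M0CM, against 41.9, 52.4, 46.1 and 53.6 in D10. Its M1CM libraries stood apart from every other, with Pol1 and M0CM overlapping above D10. It was higher by 2.28 ± 0.14 (adjusted p = 1.26e-08) in M1CM and 0.90 ± 0.14 (adjusted p = 0.000313) in Pol1 against D10. Eno3, the enolase of muscle, was highest in D10, at 1.28 to 1.70 CPM in M1CM, 2.37 to 5.26 in Pol1, 4.08 to 7.93 in M0CM, against 5.77 to 15.1 in D10, and was lower in M1CM, with a log2 fold change of -2.59 ± 0.34 (adjusted p = 2.47e-05), and in Pol1, with -1.08 ± 0.32 (adjusted p = 0.0301). The Pol1 call of Eno3 was lost at adjusted p = 0.0866 leaving out rat 3, 0.0807 leaving out rat 4 and 0.126 leaving out rat 8.

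The other 6 genes of this stretch were all higher in M1CM than in D10. Aldoc, the brain-type aldolase, changed most among them, by 3.09 ± 0.34 (adjusted p = 3.97e-06), against 1.18 for Aldoa, the major aldolase. Tpi1, triose phosphate isomerase, was higher by 2.37 ± 0.18 (adjusted p = 8.54e-08) in M1CM and by 1.08 ± 0.17 (adjusted p = 0.0203) in M0CM, where the call was lost at adjusted p = 0.102 leaving out rat 2, 0.0686 leaving out rat 3, 0.366 leaving out rat 4 and 0.569 leaving out rat 8. Gapdh, often used as a reference gene, was higher by 1.21 ± 0.15 (adjusted p = 1.16e-05) in M1CM, with 2285 to 3730.1 CPM in M1CM, 1704 to 2134 in Pol1, 1866 to 2207 in M0CM, against 1307 to 1608 in D10. Its log2 fold change was 0.43 in Pol1 (adjusted p = 0.0528, or 0.0152 with the term for the rat) and 0.53 in M0CM (adjusted p = 0.444). Pgam1 and Eno1, phosphoglycerate mutase and the ubiquitous enolase, were higher in M1CM by 1.47 and 1.15 on the log2 scale. Of these 6, Aldoa, Aldoc, Tpi1 and Pgam1 were also called higher in Pol1, with the call lost at adjusted p = 0.0548 leaving out rat 8 for Aldoa and at adjusted p = 0.0609 leaving out rat 3, 0.0872 leaving out rat 4 and 0.0994 leaving out rat 8 for Pgam1.

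Genes of lactate production and export rose together in M1CM, but its carriers parted in the other media. Slc16a1 (MCT1), which moves lactate in either direction, was at 804, 564, 504 and 426 CPM in M1CM, 376, 423, 256 and 221 in Pol1, 109.7, 131, 67.3 and 105 in M0CM, against 96.1, 97.3, 55.6 and 74.9 in D10. M0CM overlapped D10, and Pol1 and M1CM lay above both. Slc16a1 was higher by 2.83 ± 0.28 (adjusted p = 1.42e-06) in M1CM and 1.98 ± 0.27 (adjusted p = 0.000113) in Pol1 against D10. Slc16a3 (MCT4), the export carrier of glycolytic cells, was at 506, 447, 802 and 665 CPM in M1CM, 52.1, 138, 158 and 107 in Pol1, 95.3, 130.0, 211 and 181 in M0CM, against 24.8, 70.0, 69.4 and 43.7 in D10. It was lowest in rat 2 in Pol1, M0CM and D10, every M0CM library lay above every D10 library, and Pol1 overlapped D10. Its log2 fold change against D10 was 3.54 ± 0.41 (adjusted p = 5.81e-06) in M1CM, 1.13 ± 0.37 (adjusted p = 0.0471) in Pol1 and 1.57 ± 0.38 (adjusted p = 0.249) in M0CM, which passed with the term for the rat (adjusted p = 0.00346). The Pol1 call was lost at adjusted p = 0.127 leaving out rat 3, 0.132 leaving out rat 4 and 0.2 leaving out rat 8.

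Ldha, the lactate dehydrogenase subunit of glycolytic tissue, ranged over 1379 to 2514 CPM in M1CM, 660.2 to 1285 in Pol1, 1001 to 1347 in M0CM, against 481 to 689.7 in D10. It was higher by 1.86 ± 0.22 (adjusted p = 9.87e-06) in M1CM and 0.77 ± 0.22 (adjusted p = 0.0225) in Pol1, and in M0CM its log2 fold change was 0.99 (adjusted p = 0.164, or 0.0232 with the term for the rat). Without a rat the Pol1 call of Ldha was lost at adjusted p = 0.104 leaving out rat 4 and 0.137 leaving out rat 8. Ldhb, the heart subunit, varied more between rats than between media, at 5.78 to 21.5 CPM in M1CM, 8.56 to 24 in Pol1, 7.04 to 23 in M0CM, against 7.64 to 24 in D10, and was called in none of the comparisons without the term for the rat. With that term Ldhb was lower in M1CM than in D10, Pol1 and M0CM, with adjusted p = 0.0468, 0.0219 and 0.0382.

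Where pyruvate enters the mitochondrion, 3 of the 4 kinases that switch pyruvate dehydrogenase off rose in M1CM. Neither of the 2 subunits among the members, Pdha1 and Pdhb, did. Of the subunits outside the list, Pdhx ranged over 10.4 to 16.4 CPM in M1CM against 6.42 to 8.32 in D10. M1CM and D10 overlapped for Dlat (46.0 to 53.4 against 53.3 to 69.6) and Dld (83.5 to 104 against 76.6 to 93.3). Pdk1, the kinase known as a HIF-1 target, was at 77.4, 90.7, 86.9 and 74.9 CPM in M1CM, 21.2, 31.8, 37 and 23.4 in Pol1, 26.9, 30.0, 35.5 and 32.4 in M0CM, against 13.5, 19, 15.4 and 17.6 in D10. M1CM stood above all, and Pol1 and M0CM overlapped above D10. Pdk1 was higher against D10 by 2.33 ± 0.17 (adjusted p = 5.92e-08) in M1CM, 0.79 ± 0.16 (adjusted p = 0.00359) in Pol1 and 0.93 ± 0.16 (adjusted p = 0.0386) in M0CM. The M0CM call was lost at adjusted p = 0.106 leaving out rat 2, 0.208 leaving out rat 3, 0.563 leaving out rat 4 and 0.569 leaving out rat 8, and the Pol1 call at adjusted p = 0.0506 leaving out rat 4. Pdk3 was at 56.8, 49.6, 43.6 and 46.6 CPM in M1CM, 58.9, 68.7, 67.1 and 46.4 in Pol1, 34.4, 46.9, 30.4 and 24.8 in M0CM, against 26, 33.9, 23.1 and 21.6 in D10. Its mean was highest in Pol1, and M1CM and Pol1 overlapped. It was higher by 0.91 ± 0.19 (adjusted p = 0.00136) in M1CM and 1.21 ± 0.19 (adjusted p = 0.000442) in Pol1 against D10, and its log2 fold change between M1CM and Pol1 was -0.29 (adjusted p = 0.284).

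Pdk4, the starvation-induced kinase, ranged over 4.21 to 8.54 CPM in M1CM, 2.15 to 3.24 in Pol1, 1.73 to 2.15 in M0CM, against 1.54 to 3.87 in D10, and was higher in M1CM by 1.50 ± 0.32 (adjusted p = 0.00138) against D10. Pdk2 was higher in Pol1 by 0.33 ± 0.10 (adjusted p = 0.0407), a call lost without any of the rats, at adjusted p = 0.0585 leaving out rat 2, 0.115 leaving out rat 3, 0.153 leaving out rat 4 and 0.211 leaving out rat 8. Pdhb, the beta subunit of the enzyme, was lower in M1CM, with a log2 fold change of -0.36 ± 0.12 (adjusted p = 0.0294), and in Pol1, with -0.41 ± 0.12 (adjusted p = 0.034), in groups that overlap D10. Those calls were lost at adjusted p = 0.219 leaving out rat 4 and 0.142 leaving out rat 8 in M1CM and at adjusted p = 0.0716 leaving out rat 2, 0.26 leaving out rat 4 and 0.101 leaving out rat 8 in Pol1. Pdha1, the alpha subunit, was lower in M1CM than in D10 in 4 of 4 rats but was not called (log2 fold change -0.17, adjusted p = 0.0974).

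In the pentose phosphate pathway only the non-oxidative enzymes Taldo1 and Tkt were called among the 5 members tested with no term for the rat, and only in comparisons with M1CM. Taldo1, transaldolase, was at 84.3, 90.4, 88.4 and 88.4 CPM in M1CM, 52.2, 59.6, 59 and 57.5 in Pol1, 48.5, 59.9, 56.1 and 60.1 in M0CM, against 50.9, 45.3, 53.3 and 60.2 in D10. The M1CM libraries lay within a few CPM of each other and above all others, which overlapped. Taldo1 was higher in M1CM than in D10 by 0.74 ± 0.093 (adjusted p = 1.39e-05) and than in M0CM by 0.65 ± 0.093 (adjusted p = 6.31e-05). Tkt, transketolase, was at 257, 247, 321 and 282 CPM in M1CM, 189, 186, 176 and 163 in Pol1, 206, 204, 197 and 189 in M0CM, against 182, 170.0, 172 and 182 in D10. M1CM again stood above every other library, and Tkt was higher than in D10 by 0.65 ± 0.089 (adjusted p = 3.39e-05) and than in Pol1 by 0.63 ± 0.089 (adjusted p = 0.000143). Rpe, a pentose epimerase, was called in no comparison, and Pgls, of the oxidative branch, only with the term for the rat, as lower in M1CM than in Pol1 and M0CM (adjusted p = 0.0218 and 0.0397). Rpia, the isomerase that makes ribose-5-phosphate, passed only with the term for the rat, in M1CM and Pol1 against D10 (adjusted p = 0.000683 and 0.00153) and against M0CM (adjusted p = 0.000408 and 0.00105).

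Glycogen genes rose on both sides of the store. Gys1, glycogen synthase, was at 652, 619, 579.7 and 491 CPM in M1CM, 202, 255, 259.6 and 188 in Pol1, 189, 200.2, 235 and 204 in M0CM, against 142, 166, 138 and 121 in D10. M1CM stood apart, and Pol1 and M0CM overlapped above D10. It was higher against D10 by 2.05 ± 0.14 (adjusted p = 2.55e-08) in M1CM and 0.68 ± 0.13 (adjusted p = 0.00256) in Pol1, and its log2 fold change in M0CM was 0.55 (adjusted p = 0.273, or 0.022 with the term for the rat). Pygl, the liver-type phosphorylase that breaks glycogen down, was at 316, 264, 293 and 230.1 CPM in M1CM, 84, 75.8, 118 and 62.9 in Pol1, 91, 70.9, 89.1 and 57.8 in M0CM, against 54.3, 46.1, 54.1 and 31.1 in D10. The 4 groups kept the same order as for Gys1, and Pygl was higher by 2.57 ± 0.22 (adjusted p = 3.61e-07) in M1CM and 0.88 ± 0.21 (adjusted p = 0.00991) in Pol1. The Pol1 call of Pygl was lost at adjusted p = 0.0584 leaving out rat 3 and 0.0622 leaving out rat 4, and Pgm1, which links glucose-1-phosphate to glycolysis, was higher in M1CM by 1.18 ± 0.14 (adjusted p = 8.46e-06).

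**Figure D2:**
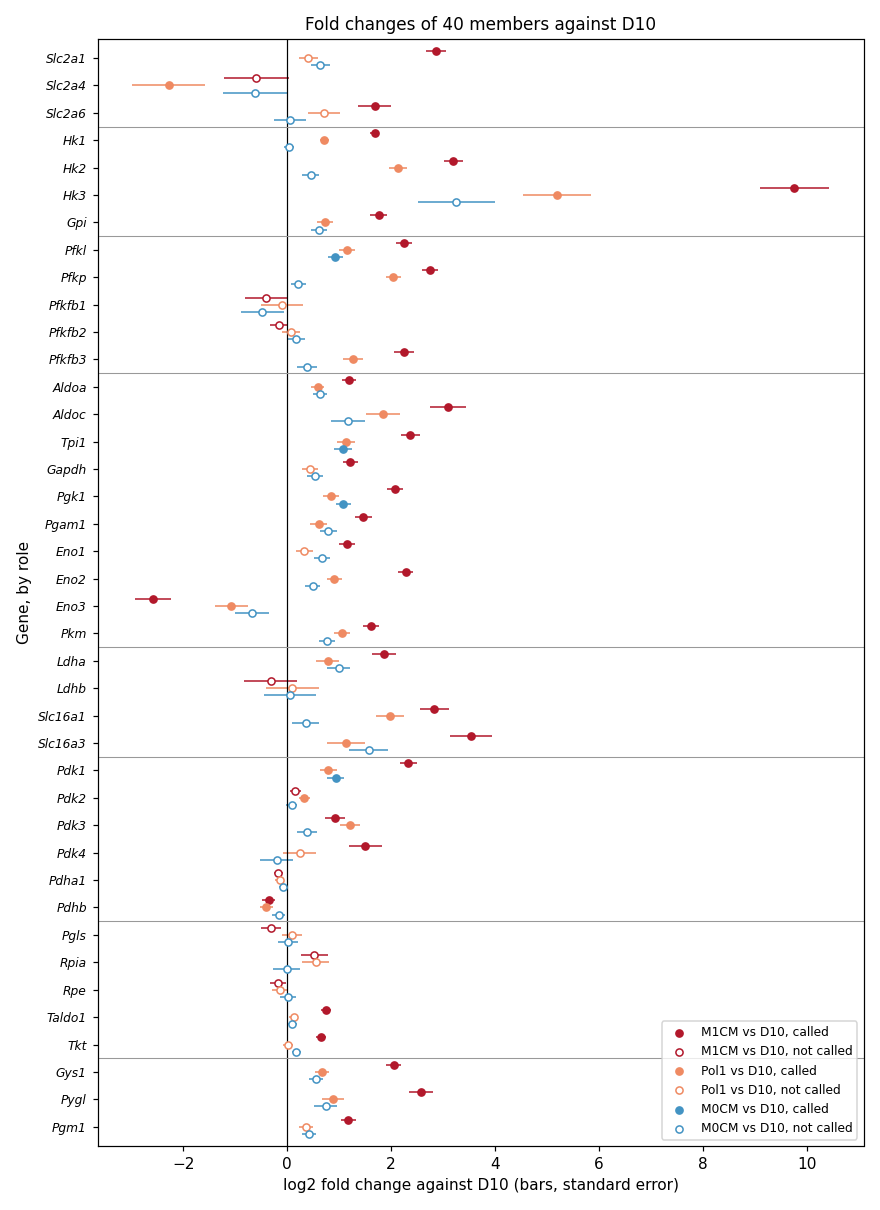
Log2 fold change (x axis, bars give the standard error) of the 40 tested members (y axis, by role) in M1CM, Pol1 and M0CM against D10, which share the 4 D10 libraries; filled points are called at an adjusted p below 0.05. Most M1CM points lie right of the others, up to 9.76 for Hk3; Hk1, Hk2, Pfkp and Slc16a1 have M0CM points far left of the Pol1 ones, and Pfkl, Tpi1, Pgk1 and Pdk1 have filled M0CM points near the Pol1 ones.

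Set directly against the other 2 macrophage or polarizing media, most members were highest in M1CM. Against Pol1, 28 members were higher in M1CM and 1 lower, while 13.8% of all genes were higher and 11.3% lower, with a member median log2 fold change of 0.85. Against M0CM 29 were higher and 1 lower, while 21.5% and 18.9% of all genes were, with a median of 0.86. The lower gene was Eno3 in both, with log2 fold changes of -1.51 ± 0.34 (adjusted p = 0.0044) and -1.91 ± 0.34 (adjusted p = 0.000391). With the term for the rat 29 and 30 were higher, Slc2a4 being added against Pol1 and Rpia against M0CM, where 19.8% and 26.3% of all genes were. The lower members were then 3 in each, Eno3, Ldhb and Pgls, against 19.5% and 26% of all genes, and without rat 2 or rat 3 and with no such term they were 2 in each. Slc16a3 showed the widest step against Pol1 outside Hk3 and Slc2a1 (2.41 ± 0.39 on the log2 scale, adjusted p = 0.000416), and Pdk1 was higher by 1.54 ± 0.17 (adjusted p = 1.86e-05). The fold of Pkm over Pol1 (0.56 ± 0.15 on the log2 scale, adjusted p = 0.0151) was lost at adjusted p = 0.0983 leaving out rat 2, 0.0546 leaving out rat 4 and 0.111 leaving out rat 8. Other calls against Pol1 that did not hold without each rat were those of Aldoc (adjusted p = 0.0945 leaving out rat 2), Slc16a1 (adjusted p = 0.111 leaving out rat 2, 0.0732 leaving out rat 4 and 0.0949 leaving out rat 8) and Pdk4 (adjusted p = 0.0737 leaving out rat 3 and 0.122 leaving out rat 4), besides Slc2a6. Against M0CM they were those of Eno1 (adjusted p = 0.123 leaving out rat 2, 0.118 leaving out rat 4 and 0.074 leaving out rat 8) and Pdk3 (adjusted p = 0.181 leaving out rat 2, 0.125 leaving out rat 4 and 0.108 leaving out rat 8).

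Between Pol1 and M0CM the called differences lay in hexokinases, phosphofructokinase and its regulator, a lactate carrier and a kinase of pyruvate dehydrogenase. Hk1, Hk2, Hk3, Pfkp, Pfkfb3, Slc16a1 and Pdk3 were higher in Pol1 than in M0CM, 7 of 40 against 8.38% of all genes. None was lower by edgeR, with 1 at an unadjusted p below 0.05 and 0 by DESeq2, against 5.67% of all genes. The log2 fold changes were 1.83 ± 0.15 (adjusted p = 4.04e-07) for Pfkp, 1.68 ± 0.17 (adjusted p = 4.8e-06) for Hk2, 1.63 ± 0.27 (adjusted p = 0.000752) for Slc16a1 and 0.82 ± 0.19 (adjusted p = 0.0094) for Pdk3. Hk1 was higher by 0.68 ± 0.093 (adjusted p = 0.000112), Hk3 by 1.94 ± 0.48 (adjusted p = 0.0135) and Pfkfb3 by 0.88 ± 0.19 (adjusted p = 0.00548). Those of Hk3, Pfkfb3 and Pdk3 were lost without a rat, at adjusted p = 0.105 leaving out rat 3, 0.0531 leaving out rat 4 and 0.088 leaving out rat 8 for Hk3, adjusted p = 0.0536 leaving out rat 4 for Pfkfb3 and adjusted p = 0.059 leaving out rat 2 and 0.116 leaving out rat 4 for Pdk3, so that 4 members stayed without rat 4. None of the 10 genes of lower glycolysis was called by edgeR, with 2 at an unadjusted p below 0.05 and 1 by DESeq2, and their median log2 fold change was -0.08. With the term for the rat Aldoc and Eno2 were higher in Pol1 (adjusted p = 0.0249 and 0.0182). In that fit 11 members were higher, Slc2a6 and Rpia being the others added, against 13.4% of all genes, and 1 was lower, Slc2a4, against 13%. The members' median of 0.07 lay near that of all genes, -0.01.

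**Figure D3:**
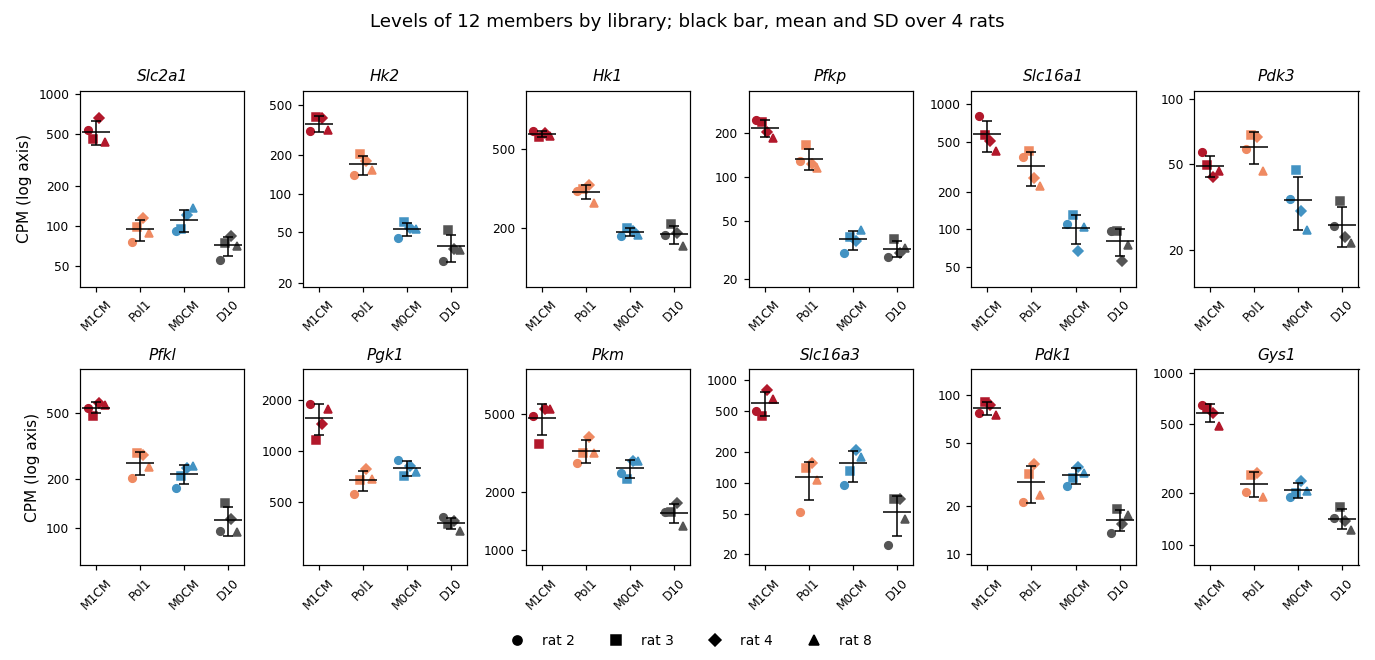
CPM on a log axis (y) of 12 members in the 4 media (x), with 1 symbol per rat and a black bar for the mean with its SD (n = 4). In the upper row Hk2, Hk1, Pfkp and Slc16a1 have M0CM points that overlap D10 and Pol1 points above both. In the lower row Pfkl, Pgk1, Pkm, Slc16a3, Pdk1 and Gys1 have Pol1 and M0CM points that overlap. Of these, Pgk1 is higher in M0CM and Pkm in Pol1 in each rat, and Slc16a3 overlaps D10 in Pol1 but not in M0CM. Slc2a1 is far higher in M1CM than in the other media.

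Whether M1CM did more than both other media added together was tested as the log2 change in M1CM less the sum of those in Pol1 and M0CM, each against D10. A shift that all RPMI media share would enter that sum more than once. Slc2a1, Hk1, Eno2, Gys1, Taldo1 and Tkt lay above the sum, 6 of 40 members against 4.21% of all genes. The excess was 1.82 ± 0.25 (adjusted p = 0.000902) for Slc2a1, 0.93 ± 0.13 (adjusted p = 0.000902) for Hk1 and 0.89 ± 0.19 (adjusted p = 0.013) for Eno2. It was 0.82 ± 0.19 (adjusted p = 0.0168) for Gys1, 0.52 ± 0.13 (adjusted p = 0.0262) for Taldo1 and 0.46 ± 0.13 (adjusted p = 0.039) for Tkt. Slc2a1 and Hk1 kept the call without each of the rats, and the other 4 did not, with adjusted p = 0.15 leaving out rat 4 and 0.0795 leaving out rat 8 for Eno2, adjusted p = 0.118 leaving out rat 2, 0.0793 leaving out rat 3 and 0.0628 leaving out rat 4 for Gys1, adjusted p = 0.0973 leaving out rat 2, 0.178 leaving out rat 4 and 0.128 leaving out rat 8 for Taldo1 and adjusted p = 0.0782 leaving out rat 2, 0.0544 leaving out rat 3, 0.254 leaving out rat 4 and 0.265 leaving out rat 8 for Tkt, so that 3, 4, 2 and 3 members were above the sum without rat 2, 3, 4 or 8. None lay below it by edgeR, with 1 at an unadjusted p below 0.05 and 0 by DESeq2, against 2.87% of all genes. Fitted with the term for the rat, 14 members were above, Slc2a4, Slc2a6, Hk2, Pfkfb3, Slc16a3, Pdk1, Pdk4 and Pygl being added, against 10.2% of all genes, and Pdk3 alone was below, against 10.5%. The median excess of the members was 0.23, and that of lower glycolysis 0.11.

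The make-up of each isozyme family was described by shares of FPKM, which are per length and so can be compared between genes, with no test. Of the summed hexokinases Hk2 made up 30.7% to 35.5% in M1CM, 30.3% to 37.9% in Pol1, 19% to 22% in M0CM, against 13.4% to 19.1% in D10. Hk3 made up 3.58% to 11.2% in M1CM, 0.425% to 1.39% in Pol1, 0.204% to 0.555% in M0CM, against 0% to 0.112% in D10. Hk1 was the main hexokinase in all 16 libraries, but its share was 53.3% to 65.2% in M1CM and 80.9% to 86.5% in D10, with no overlap. Of Pfkl and Pfkp together, Pfkp took 25.2% to 33.8% in M1CM, 31.2% to 39.7% in Pol1, 13.8% to 16.2% in M0CM, against 21.2% to 26.1% in D10, so that M0CM lay below D10 and Pol1 above it, with no overlap on either side.

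Of both lactate carriers, Slc16a3 held 49.5% to 71.2% in M1CM, 17.7% to 49% in Pol1, 57.5% to 83% in M0CM, against 28.7% to 66% in D10, lowest in rat 2 and highest in rat 4 in every medium. Of the 4 kinases, Pdk1 held 56.2% to 61.8% in M1CM, 25% to 34.5% in Pol1, 35.6% to 47.6% in M0CM, against 26.6% to 36.2% in D10, and Pdk3 22.8% to 30.3% in M1CM, 43.5% to 51.1% in Pol1, 26.9% to 41% in M0CM, against 32.9% to 41.3% in D10. Pdk1 led in M1CM and Pdk3 in Pol1. Of the 4 carriers listed, Slc2a1 held 75.9% to 86.1% in M1CM, 54.5% to 76.5% in Pol1, 68.9% to 77.8% in M0CM, against 63.2% to 69.3% in D10. Eno2 stayed under 10% of the enolases, at 6.21% to 9.32% in M1CM, 4.41% to 6.33% in Pol1, 2.75% to 3.45% in M0CM, against 2.81% to 4.49% in D10, and Aldoc under 5% of both aldolases, at 3.47% to 4.96% in M1CM, 1.92% to 3.43% in Pol1, 0.842% to 2.01% in M0CM, against 0.621% to 1.39% in D10. Of both dehydrogenase subunits, Ldha held 98.9% to 99.7% in M1CM, 95.7% to 99.1% in Pol1, 97.2% to 99.4% in M0CM, against 94.2% to 98.6% in D10.

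**Figure D4:**
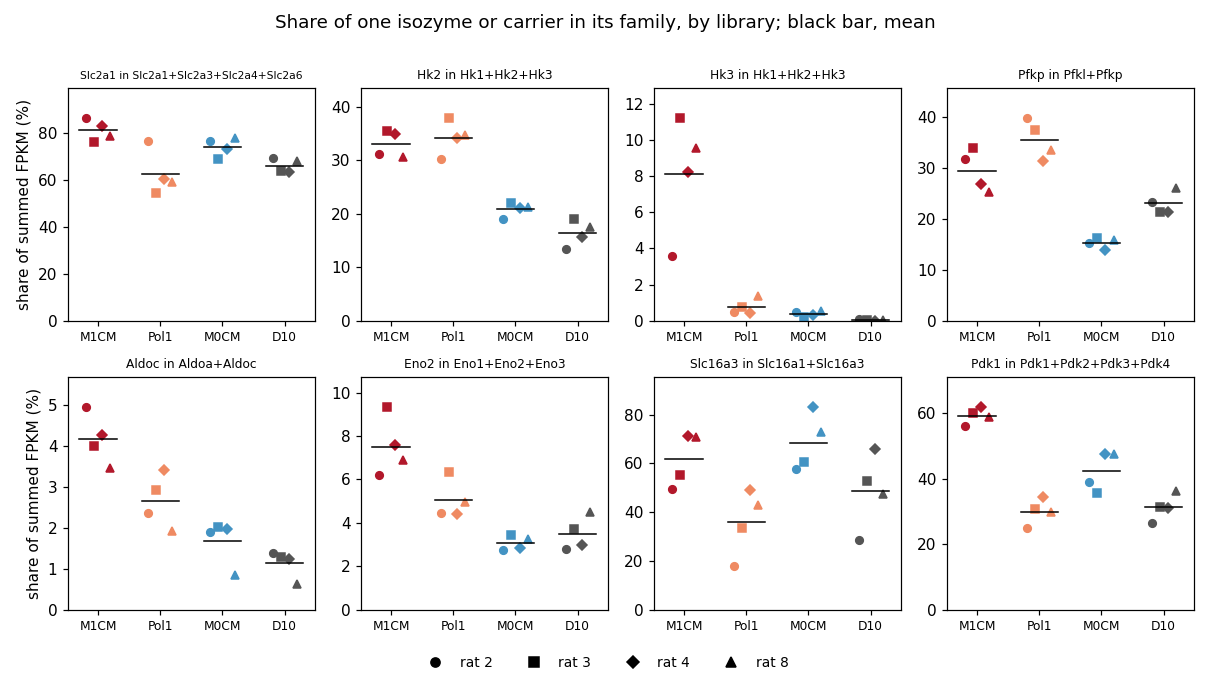
Share (%) of 1 isozyme or carrier in the summed FPKM of its family (y) in the 4 media (x), with 1 symbol per rat and a black bar for the mean. The Hk2 and Pfkp shares are highest in Pol1 and M1CM, the Pfkp share is lowest in M0CM, and the Slc16a3 share is lowest in Pol1.

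Other genes of the same pathways were called in both directions. Of 58 further genes listed, 48 were found and 43 tested. M1CM had 15 of them above D10 and 12 below, against 23.3% and 21.1% of all genes, with a median log2 fold change of -0.03, and Pol1 had 9 above and 5 below, against 10.6% and 8.09%. In M0CM none was called by edgeR, with 5 at an unadjusted p below 0.05 and 0 by DESeq2. Slc2a13, the proton-coupled inositol carrier, averaged 5.29 ± 0.992 CPM in M1CM against 22.4 ± 5.94 in D10 (-2.09 ± 0.20 on the log2 scale, adjusted p = 1.12e-06), and Slc2a12 and Slc2a10 had log2 fold changes of -1.73 and -1.07. H6pd, a pentose phosphate enzyme of the endoplasmic reticulum, was higher in M1CM than in D10 by 0.95 ± 0.093 (adjusted p = 1.25e-06), and Prps2, which draws ribose-5-phosphate into nucleotide synthesis, was lower (-1.45 ± 0.23 on the log2 scale, adjusted p = 0.000147). Of the glycogen genes outside the list, Gbe1, the branching enzyme, was higher by 1.99 ± 0.20 (adjusted p = 1.56e-06), while Gyg1, the primer of glycogen, was lower (-0.64 ± 0.14 on the log2 scale, adjusted p = 0.00237). Pdp1, the phosphatase that switches pyruvate dehydrogenase back on, averaged 22 ± 5.18 CPM in M1CM, 54.6 ± 8.01 in Pol1 and 16.5 ± 1.68 in D10, and was higher by 0.42 ± 0.15 (adjusted p = 0.0387) in M1CM and 1.73 ± 0.16 (adjusted p = 1.36e-06) in Pol1, the M1CM call being lost at adjusted p = 0.181 leaving out rat 2, 0.1 leaving out rat 3 and 0.106 leaving out rat 4.

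Regulators of the pathway moved in M1CM as well, with 7 of the 12 tested above D10 and 1 below it, where 23.3% and 21.1% of all genes were. In Pol1 3 were above, where 10.6% of all genes were, and in M0CM 1, where 0.125% were, and none was below in either by edgeR, with 0 at an unadjusted p below 0.05 and 0 by DESeq2. The higher ones in M1CM were Hif1a, Epas1, Egln1, Egln3, Vhl, Esrra and Ppargc1a, and in M0CM Egln1, an oxygen sensor of the HIF pathway. The M1CM call of Ppargc1a was lost at adjusted p = 0.0572 leaving out rat 3, 0.154 leaving out rat 4 and 0.15 leaving out rat 8. Epas1, the HIF-2 alpha subunit, averaged 418 ± 86.3 CPM in M1CM against 52.1 ± 25.6 in D10 (3.00 ± 0.40 on the log2 scale, adjusted p = 2.39e-05). Egln3, a HIF hydroxylase that is itself a HIF target, averaged 73.9 ± 53.1 CPM in M1CM against 0.259 ± 0.233 in D10 (8.12 ± 1.03 on the log2 scale, adjusted p = 1.57e-05). Vhl, the ubiquitin ligase subunit that removes HIF, was higher by 0.83 ± 0.089 (adjusted p = 2.85e-06), and Myc, which drives glycolytic genes in many dividing cells, was lower, at 8.62 ± 4.18 CPM in M1CM against 20.4 ± 4.54 in D10 (-1.24 ± 0.31 on the log2 scale, adjusted p = 0.00466). Txnip, a restraint on glucose uptake, and Mlxip, a glucose-sensing factor, were not called, with log2 fold changes of -0.09 and -0.03. These are levels of RNA, and neither glucose use nor lactate was measured in these files.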

How the data were processed

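RNA of 16 MSC cultures (4 rats, 4 media) was sequenced by the authors from libraries of a NEBNext Ultra kit, per the labels, and the submitters' processing notes name CASAVA, TopHat2 2.0.12 with Bowtie2 2.2.3, HTSeq 0.6.1 and DESeq 1.18.0. The deposited table holds, for 26689 genes, the authors' raw HTSeq read counts of each library beside FPKM values and gene lengths in bases. Reads had been mapped by them to the rat genome Rnor_6.0; the strand setting of the counting is not given in the sources used here. FPKM deposited by the authors equalled count over length and library total within 1% for 89.8% of values above 0. The 58 columns of group means and of the authors' own comparisons (fold changes, p-values and calls) were not used, and 0 per-sample columns matched no sample. 

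TMM-scaled counts were tested in edgeR 4.0.16 (R 4.3.3) with the quasi-likelihood F-test, two-sided, 1 term per condition over all 16 libraries, on 13556 genes that reached 10 counts in 4 or more libraries. P-values were adjusted over all of these genes (Benjamini-Hochberg), with calls at an adjusted p below 0.05. The script was tested on simulated data. The same rats gave all conditions by the animal labels: deviations from the condition mean correlated at 0.33 to 0.728 over 24 pairs of libraries of 1 rat and -0.519 to 0.225 over 72 pairs of other rats, so a fit with the rat as a replicate block stands beside results of the members whose call or count it changes. Alternatives were DESeq2 1.42.0, library totals, no filter, only the conditions compared, each rat left out, the summed Gapdh rows, shares by CPM and, chosen after seeing the data, each rat left out with the block. Precision rests on 4 rats per medium.

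Values per library are given for Hk2, Pfkp, Slc2a1, the 2 members of each role with the smallest p in M1CM against D10 and the one with the smallest p in each other comparison where called, 18 members in all. Members, lists and tests were chosen with earlier results of these data known. Some results that were computed are not reported here.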

Additional observations from a re-analysis of the deposited data

Results flagged for a closer look

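The excess of M1CM over the summed changes of Pol1 and M0CM was past the threshold of its own test in 6 members, which means that the change in M1CM differed from what both media add up to on the log2 scale (edgeR quasi-likelihood test with Benjamini-Hochberg adjustment, n = 4 per medium). It was 1.82 for Slc2a1, 0.93 for Hk1, 0.89 for Eno2, 0.82 for Gys1, 0.52 for Taldo1 and 0.46 for Tkt, with adjusted p = 0.000902, 0.000902, 0.013, 0.0168, 0.0262 and 0.039. The last 4 lost the call without at least 1 rat, and Slc2a1 and Hk1 kept it with each rat left out in turn. Over the 18 members with values per library, 72 groups of 4 libraries were looked at for a library far from the other 3. None passed Dixon's critical value. Summed levels and the other members were not in this check, so it does not cover where M1CM rat 3 lay apart. There the sum over the 42 genes was 18741 CPM against 25675 to 26083 in the other M1CM libraries. Aldoa was at 1515 CPM against 2037 to 2061.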

How the results depend on the processing

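Of 132 called pairs of a member and a comparison, 132 kept their call with the replicate block and with DESeq2, 127 by library totals, 126 with no filter, and 103 under every alternative run; no log2 fold change changed sign. With the replicate block the counts of members were 16 higher in M0CM than in D10, 3 lower in M1CM than in Pol1, 3 lower in M1CM than in M0CM, 11 higher and 1 lower in Pol1 than in M0CM, and 14 above and 1 below the sum. DESeq2 gave 14 higher in M0CM than in D10. With only the conditions compared, 1 was lower in M1CM and 0 in Pol1 than in D10, and 2 were higher in M0CM. With no filter 1 was lower in Pol1 than in D10. Leaving out each rat, without and with the block, gave 1 to 3 and 1 to 4 lower in M1CM than in D10, 0 to 1 and 1 to 3 lower in Pol1 than in D10, 0 to 2 and 2 to 16 (10 without rat 2) higher in M0CM than in D10, 1 to 2 and 2 to 3 lower in M1CM than in Pol1, 1 to 2 and 1 to 3 lower in M1CM than in M0CM, 4 to 7 and 8 to 11 higher in Pol1 than in M0CM, 0 and 0 to 1 lower in Pol1 than in M0CM, 2 to 4 and 7 to 12 (10 without rat 8) above the sum, and 0 and 0 to 2 below it. By CPM in place of FPKM the mean share was 70.1% for Slc2a1 in D10, 9.35%, 6.33%, 3.87% and 4.40% for Eno2 in M1CM, Pol1, M0CM and D10, 54.2% for Pdk1 in M1CM, and 32.4%, 56.1%, 41.8% and 45.1% for Pdk3 in M1CM, Pol1, M0CM and D10; the other 34 shares moved by less than 1 SD. The alternatives with fewer libraries or fewer genes tested have less power by construction, and the cause of the other changes was not tested. Low counts limit Slc2a3, Slc2a4 and Fbp1.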
